A study of Mus musculus with 30 samples.

Results

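Mouse embryonic stem cells (mESCs) kept for 20 passages (P20) in Enhanced Metabolic Media (EMM) were compared with mESCs kept for 20 passages in Serum/LIF. The comparison rests on the 3 libraries titled P20 EMM and the 3 titled P20 SL, which are 6 of the 30 RNA-seq libraries of the series, and on every gene that passed a filter on low counts, 16054 of 55487. All cells were of the E14tg2a line, a single established mESC line, so the comparison has 1 genotype. Serum/LIF holds fetal bovine serum, D-glucose, pyruvate, L-glutamine and leukaemia inhibitory factor (LIF), and EMM is the same medium with D-galactose in place of both D-glucose and pyruvate. Both groups were grown in serum and LIF, on gelatinized flasks by the study's methods. The methods describe replicates as collected in independent experiments. Whether each P20 replicate went through its own 20 passages is not given in the sources used here, and p-values measure the spread between these libraries. For some genes and lists the P10 response is also given, from 3 EMM and 3 Serum/LIF libraries of the same line after 10 passages. The 24 h response, where given, is from a separate time course with 3 libraries in EMM for 24 h and 3 in Serum/LIF. A P20 value given alone does not say that the response was the same at P10.

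Galactose reaches glycolysis through the Leloir pathway, which is slower than the entry of glucose, so cells in galactose depend more on mitochondrial respiration. Cells sense glucose 6-phosphate through MondoA and ChREBP (genes Mlxip and Mlxipl), transcription factors that pair with Mlx and bind carbohydrate response elements, and Txnip and Arrdc4 are their best known targets. Genes of the lysosome share an E-box motif bound by TFEB, TFE3 and MITF. In serum, mESC cultures hold naive cells beside cells that start to differentiate, and a small share of cells that pass through a state resembling the 2-cell embryo.

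The P20 EMM libraries had total counts of 16678658 to 27912959, and the P20 Serum/LIF libraries 11656054 to 20305359. Mitochondrially encoded genes took 2.16% to 2.54% of the counts in these 6 libraries. Levels are given as normalized counts, which are counts scaled to a common effective library size, and a floor of 3 counts in a library stood for 1.68 to 3.75 of them. The 8 markers of ES cells summed to 72348 to 74208 in EMM and 81644 to 88549 in Serum/LIF, and none was at 0. The 8 fibroblast markers summed to 193 to 230.0 in EMM against 3669, 4048 and 7262 in Serum/LIF. Col1a1 and Col1a2 made up 90.4% to 92.3% of the Serum/LIF sums, and the other 6 markers summed to 148 to 185 in EMM against 348 to 557. Of the 6 fibroblast markers that were tested 5 were lower in EMM, also without Serum/LIF replicate 3, and Postn was at 0 in every EMM library. Thy1 did not pass, and Lum and Dcn were too low to be tested. The 8 trophectoderm markers summed to 180 to 199 in EMM against 452 to 760 in Serum/LIF, the 8 primitive endoderm markers to 253 to 363 against 266 to 355, the 6 neural markers to 1967 to 2068 against 1822 to 2028, and the 5 mesoderm markers to 50.9 to 79.1 against 342 to 370. The 4 markers of the 2-cell state summed to 6.53 to 42.0 against 292 to 674. Serum/LIF replicate 3 held the highest sum for fibroblast, trophectoderm and 2-cell markers, so the counts that rest on these cells are given with and without it. Fewer cells of a type and less RNA per cell cannot be told apart in such bulk libraries.

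At P20, EMM cells had 553 genes higher and 993 genes lower than Serum/LIF cells, past a log2 fold change of 1 in either direction with an adjusted p under 0.01, which is 3.44% and 6.19% of the genes tested. Without Serum/LIF replicate 3 the numbers were 479 and 793. Falls were larger than rises. A change of more than 8-fold was called for 21 higher and 208 lower genes, and of more than 16-fold for 10 and 77. Without the fold threshold, 2176 genes (13.6%) were higher and 2003 (12.5%) lower, and these shares are the background for the lists below, whose members were counted at an adjusted p under 0.01. The median log2 fold change over all genes tested was 0.00. Of the called genes, 503 of the higher and 910 of the lower are annotated as protein coding, as are 14195 of the 16054 genes tested.

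**Figure D1:**
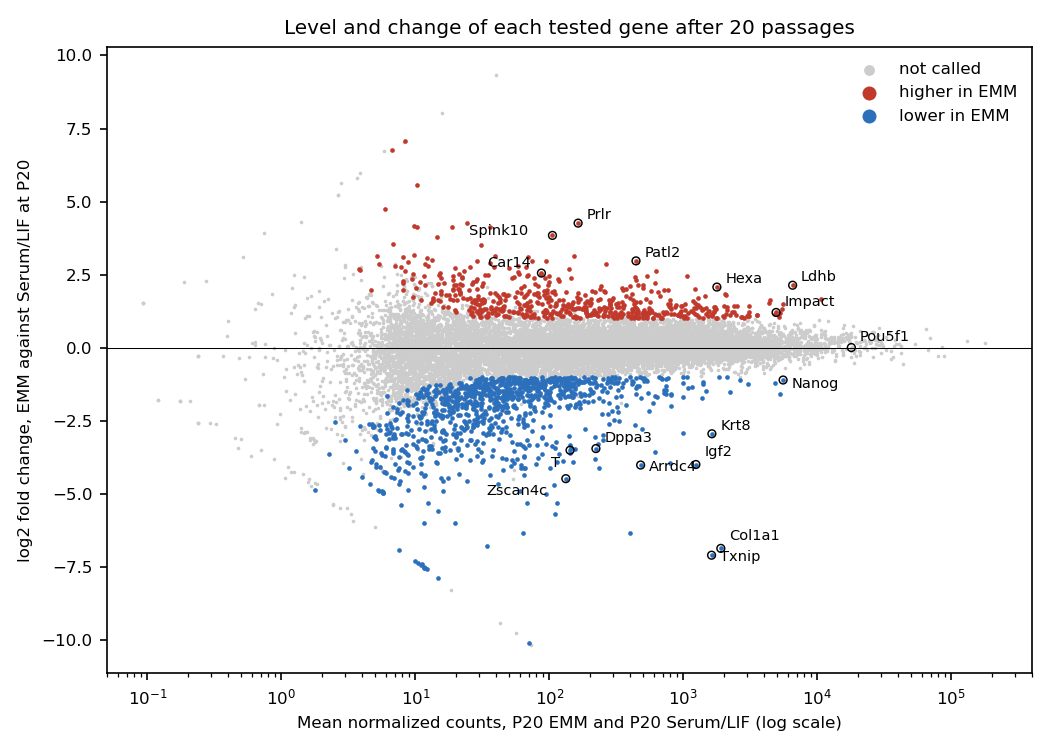
Each point is a gene tested that had a count in these libraries. The x axis gives the mean normalized counts over the 6 P20 libraries on a log scale and the y axis the log2 fold change of EMM against Serum/LIF at P20. Txnip (−7.11) and Col1a1 (−6.88) stand far below other genes of their level, Prlr (4.26) is the largest of the named rises, and Pou5f1 lies at 0.00.

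Among genes of at least 50 normalized counts in 1 group, without those under predicted names (Gm numbers and the like), the largest rise was that of Prlr, the prolactin receptor. It lies at chromosome 15, 10177238 to 10349180 (ENSMUSG00000005268, GRCm38) and had 325, 298 and 312 normalized counts in EMM and 17.9, 16.4 and 13.8 in Serum/LIF (log2 fold change 4.26, SE 0.22, edgeR adjusted p = 2.3e-10), so that every EMM library lay far above every Serum/LIF library. Scrt1, a transcriptional repressor of the Snail superfamily, had 77.2, 58.8 and 70.4 in EMM and 2.10, 4.29 and 5.01 in Serum/LIF (4.13, edgeR adjusted p = 2.08e-05). Calcr, the calcitonin receptor, had 66.98, 77.2 and 68.9 in EMM and 3.15, 9.29 and 11.3 in Serum/LIF (3.15, edgeR adjusted p = 5.89e-06). Both were near the floor in Serum/LIF, so that their fold changes rest on low counts in that medium, and both were above it in every EMM library. Spink10, of the Kazal family of serine protease inhibitors, had 175, 198 and 218 in EMM and 15.8, 12.9 and 12.5 in Serum/LIF (3.84), and Dock10, an exchange factor for small GTPases, had 54.9, 58.8 and 55.9 in EMM and 6.30, 3.57 and 5.01 in Serum/LIF (3.52), also near the floor in Serum/LIF. Patl2, an RNA-binding protein of the oocyte, was the most abundant of the 10 largest rises, with 804, 711 and 843 in EMM and 101, 99.997 and 100.1 in Serum/LIF (log2 fold change 2.97, SE 0.14, edgeR adjusted p = 7.04e-11). Fam189a2, Dpp6, Ripply3 and Sox6 complete the 10. Their log2 fold changes were 3.12 for Fam189a2, 3.09 for Dpp6, 2.97 for Ripply3 and 2.96 for Sox6, with edgeR adjusted p from 1.79e-08 to 3.47e-06. Ripply3 represses T-box factors and Sox6 is a transcription factor of the SoxD group.

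The largest fall among the same genes was that of Txnip, described next, and then came genes of the extracellular matrix. Col1a1, a chain of type I collagen, had 32.6, 35.3 and 27.6 normalized counts in EMM and 2808, 3083 and 5435 in Serum/LIF (log2 fold change −6.88, SE 0.27, edgeR adjusted p = 9.69e-12). Its partner chain Col1a2 had 12.1, 11.2 and 5.08 in EMM and 514, 576 and 1270.1 in Serum/LIF (log2 fold change −6.36, SE 0.39, edgeR adjusted p = 1.84e-09). The groups lay far apart for both, and Serum/LIF replicate 3 held the highest level. Tnc, the matrix protein tenascin C, had 7.44, 3.92 and 5.80 in EMM and 141, 153 and 253 in Serum/LIF (−5.01). Col8a1, a chain of type VIII collagen, had 0, 0 and 1.45 in EMM and 46.2, 45.7 and 111 in Serum/LIF, so that a single EMM library held any count. Xlr3a, an X-linked gene with near-identical copies among which reads may be split, had 7.44, 3.36 and 2.18 in EMM and 183, 211 and 249 in Serum/LIF (−5.68) and Usp26, an X-linked ubiquitin-specific protease, had 6.51, 6.15 and 3.63 in EMM and 196, 194 and 282 in Serum/LIF (−5.33). Sprr2a2, a small proline-rich protein of epithelia with close copies, had 0, 4.48 and 4.35 in EMM and 130.2, 131 and 139 in Serum/LIF, and Catip had 2.79, 3.36 and 2.90 in EMM and 87.2, 80.7 and 72.6 in Serum/LIF (−4.66).

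Txnip encodes an arrestin that limits glucose uptake, and Arrdc4 is its close relative. Their promoters, read from RefSeq on GRCm38.p6, are shown because these are the best known targets of the glucose-sensing factors. The capitals in Txnip mark a match to 2 E-box-like units, each CACGNG, that lie 5 bases apart, and the match starts 85 bases before the transcription start. Those in Arrdc4 mark an E-box, CACGTG, that starts 193 bases before it. Both stretches read 5′ to 3′ on the strand of the gene.
Txnip, chr3:96557837-96557956, plus strand: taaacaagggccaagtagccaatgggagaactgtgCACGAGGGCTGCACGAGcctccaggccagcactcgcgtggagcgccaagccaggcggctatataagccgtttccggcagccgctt
Arrdc4, chr7:68749389-68749488, minus strand: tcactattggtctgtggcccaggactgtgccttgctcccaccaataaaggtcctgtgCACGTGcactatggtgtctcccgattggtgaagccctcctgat
Searched on both strands, the paired motif lies in 0.104% of the 11563 tested genes with a promoter window of the same length and the E-box, which can overlap the other motifs, in 11.6%. A match is a description of the letters only.

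Txnip lies at chromosome 3, 96557957 to 96561883 (ENSMUSG00000038393). The 3 Serum/LIF libraries had 3113, 3327 and 3228 normalized counts and the 3 EMM libraries 26.98, 21.3 and 22.5 (log2 fold change −7.11, SE 0.20, edgeR adjusted p = 7.92e-14), a level 138-fold lower in EMM. Arrdc4 had 44.7, 72.7 and 45.7 in EMM and 875, 938 and 902 in Serum/LIF (log2 fold change −4.02, SE 0.18, edgeR adjusted p = 5.97e-11). In both genes no library of one medium came near the other medium. The Txnip response was −6.15 at P10, and that of Arrdc4 was −3.93 at P10 and −3.91 at 24 h. Txnip was not analysed here at 24 h. Of the 12 genes of glucose transport and sensing tested, 2 rose and 4 fell at an adjusted p under 0.01, against 13.6% and 12.5% of all genes, and without EMM replicate 1 or Serum/LIF replicate 2 the falls were 2, Txnip and Arrdc4. Slc2a4, the insulin-responsive glucose transporter GLUT4, was low and rose, with 120.0, 136 and 143 in EMM and 28.4, 40.7 and 21.3 in Serum/LIF (log2 fold change 2.10, SE 0.24, edgeR adjusted p = 2.67e-06). The widely expressed transporters did not pass the test. Slc2a1 (GLUT1) had 12077, 11698 and 11749 in EMM and 11047, 11175 and 11079.5 in Serum/LIF (0.09, edgeR adjusted p = 0.605) and Slc2a3 (GLUT3) had 27052, 25664 and 26191 in EMM and 21707, 23346 and 21779 in Serum/LIF (0.24, edgeR adjusted p = 0.0226), without overlap of the media. Slc2a3 passed when edgeR was run on the P20 EMM and Serum/LIF libraries alone (0.23, adjusted p = 0.00237). Arrdc3, another arrestin of the family, rose by 0.56.

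Of the 8 genes of galactose entry, 3 rose and 1 fell, and the same numbers were found with any 1 library left out. Galm, which turns galactose into the form its kinase uses, had 451, 439 and 445 normalized counts in EMM and 238, 260.0 and 206 in Serum/LIF (log2 fold change 0.91, SE 0.09, edgeR adjusted p = 7.85e-07), with no overlap of the groups. Pgm1, a phosphoglucomutase that links the Leloir pathway to glucose 6-phosphate, had 3023, 2812 and 2988 in EMM and 1165, 1116 and 1039.9 in Serum/LIF (log2 fold change 1.41, SE 0.23, edgeR adjusted p = 0.000122), and its exons overlap those of Itgb3bp on the opposite strand. Ugdh, which oxidizes UDP-glucose, had 1142, 1087 and 1168 in EMM and 688, 691 and 644 in Serum/LIF (log2 fold change 0.75, SE 0.08, edgeR adjusted p = 6.99e-07). All 3 lay above the Serum/LIF range in every EMM library. Pgm2, another phosphoglucomutase by its symbol in the files, fell (−0.57, edgeR adjusted p = 0.000278). Neither the kinase nor the transferase of the pathway passed the test. Galk1, the galactose kinase, had 1758, 1889.6 and 1999 in EMM and 1716, 1530.0 and 1661 in Serum/LIF (0.20, edgeR adjusted p = 0.208), and Galt, the uridylyltransferase, had a log2 fold change of 0.12, edgeR adjusted p = 0.558.

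Glycolysis genes leaned towards higher levels in EMM. Of the 25 tested, 11 rose and 0 fell, against 13.6% and 12.5% of all genes, and the median was 0.54. At an unadjusted p under 0.05 edgeR had 17 higher and 2 lower. With any 1 library left out the rises numbered 8 to 11. Ldhb, the lactate dehydrogenase subunit that favours the oxidation of lactate to pyruvate, rose the most, with 9743, 10509.8 and 11710.3 normalized counts in EMM and 2704, 2619.9 and 1951 in Serum/LIF (log2 fold change 2.13, SE 0.12, edgeR adjusted p = 7.39e-10). Ldha, the subunit that favours lactate formation, had 28002, 29356 and 29685 in EMM and 29167, 26415 and 27197 in Serum/LIF (0.07, edgeR adjusted p = 0.733), with groups that overlapped. Pfkfb3, which makes the allosteric activator of phosphofructokinase, had 1416, 1297 and 1374 in EMM and 523, 604 and 576 in Serum/LIF (log2 fold change 1.26, SE 0.21, edgeR adjusted p = 0.000107). Among the enzymes of the main path, Gpi1 had 16039.9, 14956 and 15969.6 in EMM and 8423, 8629 and 7884 in Serum/LIF (log2 fold change 0.91, SE 0.08, edgeR adjusted p = 1.75e-07), while Pfkl rose by 0.93 and Aldoa by 0.54. Gapdh had a log2 fold change of −0.09 (edgeR adjusted p = 0.538). Of 20 hypoxia factors and targets, 12 rose and 2 fell, with a median of 0.62 (10 to 12 higher and 2 lower with any 1 library left out). Ndrg1, a stress-induced gene of this response, had 1254, 1172 and 1113 in EMM and 648, 537 and 405 in Serum/LIF (log2 fold change 1.15, SE 0.22, edgeR adjusted p = 0.000385). Bnip3, a mitophagy receptor, had 6915, 6899 and 7253 in EMM and 3499.9, 3457 and 3244 in Serum/LIF (1.05, edgeR adjusted p = 0.00163), and Egln3, an oxygen-sensing prolyl hydroxylase, had 1391, 1197 and 1465 in EMM and 722, 744 and 548 in Serum/LIF (1.0046, edgeR adjusted p = 0.000636). Kdm3a, a histone demethylase induced in low oxygen, had 6758, 6634 and 6594 in EMM and 2837, 3046 and 3162 in Serum/LIF (log2 fold change 1.14, SE 0.13, edgeR adjusted p = 1.98e-06), and Egln1, the main oxygen-sensing prolyl hydroxylase, rose by 1.10. The 2 that fell were Ankrd37 (−1.41) and Mxi1 (−0.72), and Hif1a, which encodes the oxygen-regulated subunit of the factor, had 0.16 (edgeR adjusted p = 0.0975).

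At the entry of pyruvate into mitochondria 4 of 14 genes rose and 2 fell, and 1 fell without EMM replicate 1 or 2 or Serum/LIF replicate 1 or 3. Pcx, pyruvate carboxylase, which makes oxaloacetate, had 1481, 1363 and 1362 normalized counts in EMM and 485, 589 and 503 in Serum/LIF (log2 fold change 1.41, SE 0.11, edgeR adjusted p = 2.46e-08). Pdk1, the kinase that inhibits pyruvate dehydrogenase, had 7163, 7031 and 7596 in EMM and 3376, 3329.9 and 2936 in Serum/LIF (log2 fold change 1.18, SE 0.15, edgeR adjusted p = 5.93e-06). Both were separated between the media in every library. The related kinase Pdk2 went the other way, with 46.5, 58.8 and 50.1 in EMM and 103, 96.4 and 92.6 in Serum/LIF (−0.90, edgeR adjusted p = 0.00109). Of 30 genes of the tricarboxylic acid cycle and glutamine use, 5 rose and 4 fell. Idh2, the mitochondrial NADP-dependent isocitrate dehydrogenase, had 2628, 2651 and 2814 in EMM and 1308, 1296 and 1204 in Serum/LIF (log2 fold change 1.09, SE 0.07, edgeR adjusted p = 2.74e-09). Me1, the cytosolic malic enzyme, rose by 0.75, and Slc1a5, a glutamine transporter, fell (−0.73, edgeR adjusted p = 2.18e-05).

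Few respiratory chain genes passed the test. Of the 76 tested nuclear genes of the respiratory chain and ATP synthase, 2 rose and 2 fell, against 13.6% and 12.5% of all genes, and 0 to 3 higher and 1 to 2 lower were called with any 1 library left out. The rises were 0 without EMM replicate 2 or 3 or Serum/LIF replicate 2 or 3 and 1 without EMM replicate 1, and the falls were 1 without EMM replicate 1 or 3 or Serum/LIF replicate 1. With library totals alone 0 rose and 6 fell, and with the compared groups alone 7 rose and 7 fell. Their median was 0.05, and −0.04 when libraries were scaled by their totals alone. Of the 13 mitochondrially encoded genes 0 passed by edgeR and 0 by DESeq2, with 1 higher and 1 lower at an unadjusted p under 0.05, and 5 higher and 1 lower passed when edgeR was run on the P20 EMM and Serum/LIF libraries alone. Ppargc1b, a coactivator of mitochondrial genes, was the single one of 11 mitochondrial biogenesis genes to pass, with 164, 139.9 and 120.4 in EMM and 57.8, 74.998 and 57.6 in Serum/LIF (log2 fold change 1.14, SE 0.21, edgeR adjusted p = 0.000363). Fatty acid oxidation was mixed, with 6 of 25 genes higher and 3 lower. Cpt1a, the main carnitine palmitoyltransferase of the outer membrane, had 1489, 1576 and 1578 in EMM and 903, 1064 and 925 in Serum/LIF (log2 fold change 0.68, SE 0.12, edgeR adjusted p = 0.000244), and its muscle form Cpt1b had 165, 198 and 170.5 in EMM and 63.02, 70.7 and 35.04 in Serum/LIF (1.63, edgeR adjusted p = 1.5e-05). Acadl, a long-chain acyl-CoA dehydrogenase, rose by 0.98, and Acadvl, the very-long-chain enzyme, whose exons overlap those of Dvl2, fell (−1.0004, edgeR adjusted p = 2.43e-05).

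**Figure D2:**
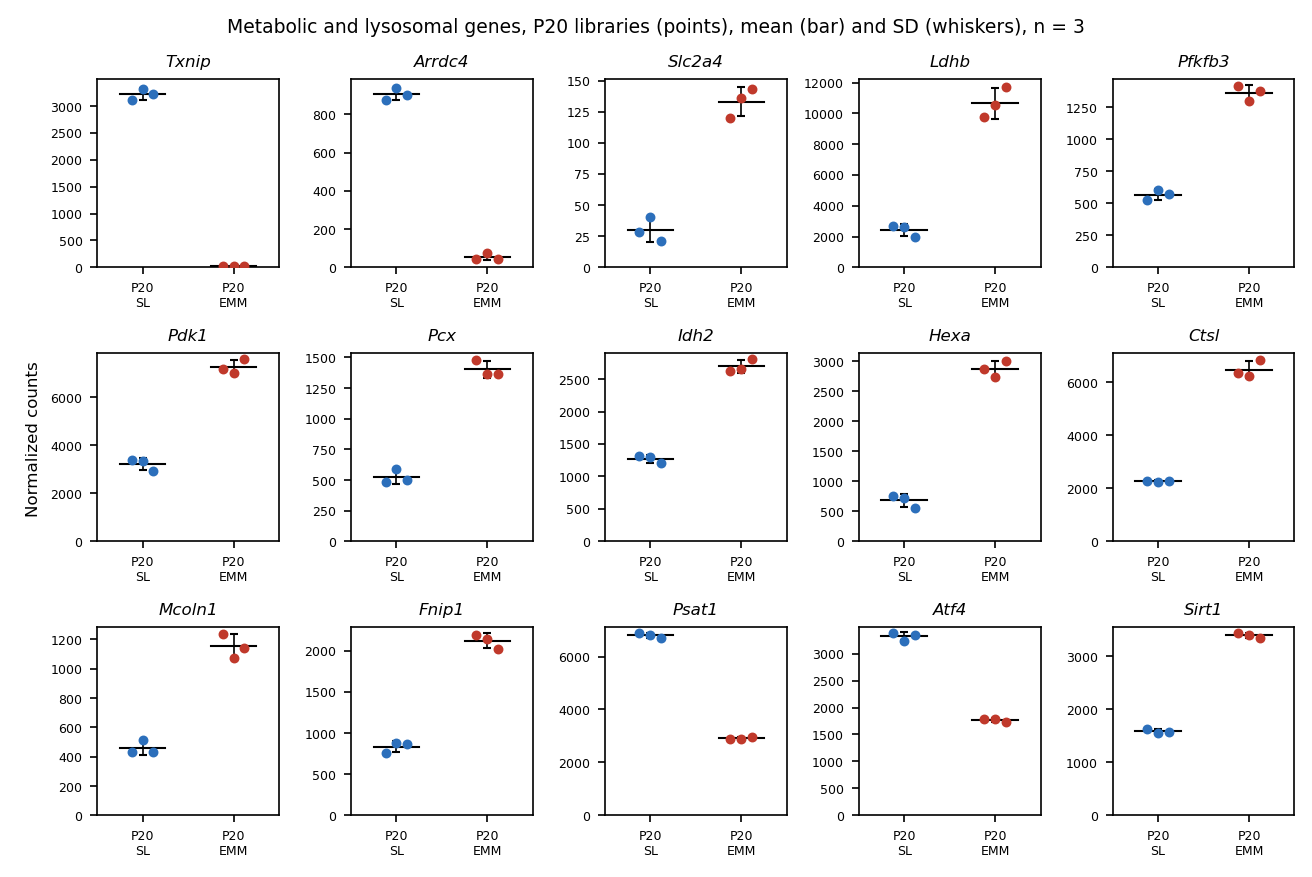
Normalized counts (y axis, from 0) of 15 metabolic and lysosomal genes in the P20 Serum/LIF (blue) and P20 EMM (red) libraries, with points for the 3 libraries of each group, bars for the mean and whiskers for the SD. In every panel the groups are apart, with Txnip, Arrdc4, Psat1 and Atf4 lower in EMM and the other 11 genes higher.

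Most lysosomal genes rose. Of 35 genes of the lysosome, its proton pump and its regulators, 24 rose and 1 fell, against 13.6% and 12.5% of all genes, with a median of 0.70. In 31 of them every EMM library lay above every Serum/LIF library, which held for 30.0% of all genes. With any 1 library left out 23 to 24 rose and 0 fell. Promoter stretches of 3 of them are shown, chosen because they hold the 8-base E-box TCACGTGA, in capitals, which is the form this gene group is known for. They are 30 bases long and read 5′ to 3′ on the strand of the gene, on GRCm38.p6 from RefSeq.
Mcoln1, chr8:3500462-3500491, plus strand: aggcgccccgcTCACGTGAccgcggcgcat
Ctsd, chr7:142387908-142387937, minus strand: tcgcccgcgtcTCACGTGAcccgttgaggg
Gla, chrX:134601215-134601244, minus strand: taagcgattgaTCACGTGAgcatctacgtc
Of the 28 lysosomal genes with a promoter window, 6 (21.4%) held this motif, against 2.01% of the 11563 tested genes with a window, and 11 (39.3%) held the shorter CACGTG, which lies inside it, against 11.6%. The 8-base motif lay in 4 of the 19 genes with a window that had risen and in 2 of the other 9, among them Gla. It was thus about as frequent in the genes that had risen as in the others.

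Hexa, a subunit of beta-hexosaminidase, rose the most of the lysosomal genes, with 2876, 2743 and 3007 normalized counts in EMM and 759, 724 and 563 in Serum/LIF (log2 fold change 2.07, SE 0.14, edgeR adjusted p = 4.86e-09). Ctsl, the protease cathepsin L, had 6371, 6224 and 6859 in EMM and 2294, 2249 and 2289 in Serum/LIF (log2 fold change 1.51, SE 0.08, edgeR adjusted p = 2.76e-10). Mcoln1, the calcium channel of the lysosome, had 1240.1, 1077 and 1144 in EMM and 435, 514 and 430.5 in Serum/LIF (log2 fold change 1.32, SE 0.10, edgeR adjusted p = 2.47e-08). Groups did not overlap for any of them. Ctsa, a protective carboxypeptidase, rose by 1.40, and Ctsd, cathepsin D, by 0.57. The exons of Ctsa overlap those of Neurl2 and Pltp. Gla, alpha-galactosidase A, had 238, 213 and 207 in EMM and 231, 207 and 237 in Serum/LIF (−0.03, edgeR adjusted p = 0.86), so that the media overlapped. Npc2, which moves cholesterol out of the lysosome, had 3181, 3080.3 and 3495 in EMM and 1458, 1416 and 1269 in Serum/LIF (log2 fold change 1.23, SE 0.08, edgeR adjusted p = 4.8e-09), and Atp6v0d1, a subunit of the proton pump, had 3105, 3015 and 2981 in EMM and 1488, 1403 and 1308 in Serum/LIF (log2 fold change 1.12, SE 0.09, edgeR adjusted p = 5.11e-08). Fnip1 and Flcn form the complex that controls TFEB and TFE3 at the lysosome. Fnip1 had 2194, 2144 and 2018 in EMM and 753, 874 and 868 in Serum/LIF (log2 fold change 1.35, SE 0.10, edgeR adjusted p = 8.51e-09) and Flcn had 1712, 1561 and 1638 in EMM and 694, 689 and 732 in Serum/LIF (log2 fold change 1.22, SE 0.09, edgeR adjusted p = 2.42e-08). Tfeb rose by 0.77 (edgeR adjusted p = 0.000751), whereas Tfe3 had a log2 fold change of 0.16 (edgeR adjusted p = 0.284).

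Of 25 tested genes of the amino acid response, which the factor ATF4 drives, 1 rose and 13 fell, with a median of −0.76 (1 higher and 11 to 13 lower with any 1 library left out, and a median of −0.45 without EMM replicate 3). Atf4 itself had 1786, 1791 and 1733 normalized counts in EMM and 3389, 3236 and 3342 in Serum/LIF (log2 fold change −0.91, SE 0.06, edgeR adjusted p = 5.34e-09). Psat1, an enzyme of serine synthesis, had 2867, 2880.5 and 2975 in EMM and 6884, 6818 and 6697 in Serum/LIF (log2 fold change −1.23, SE 0.07, edgeR adjusted p = 4.41e-10). Asns, asparagine synthetase, fell as well (−0.86, edgeR adjusted p = 8.51e-08). Chac1, which breaks down glutathione, had 106, 74.98 and 92.8 in EMM and 279, 256 and 304 in Serum/LIF (log2 fold change −1.62, SE 0.21, edgeR adjusted p = 7.74e-06), and Atf3, a stress-induced factor, had 24.2, 14.5 and 13.1 in EMM and 54.6, 68.6 and 80.1 in Serum/LIF (−2.00, edgeR adjusted p = 0.000127). For these genes every EMM library lay below every Serum/LIF library. Vldlr, a lipoprotein receptor, was the gene that rose (0.78).

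Among 20 genes of sirtuins and NAD metabolism, 4 rose and 2 fell, with 1 fall without EMM replicate 1 or 2. Sirt1, the NAD-dependent deacetylase of the nucleus, had 3444, 3399 and 3348 normalized counts in EMM and 1632, 1559 and 1564 in Serum/LIF (log2 fold change 1.10, SE 0.07, edgeR adjusted p = 2.74e-09), with no overlap. Nampt, the rate-limiting enzyme of the NAD salvage pathway, had 5739, 5444 and 5860.2 in EMM and 3187, 3488 and 3013 in Serum/LIF (log2 fold change 0.81, SE 0.09, edgeR adjusted p = 9.66e-07). Qprt, which makes NAD from tryptophan, had 74.4, 81.7 and 63.8 in EMM and 146, 161 and 131 in Serum/LIF (−0.9974, edgeR adjusted p = 0.000406) and fell. Of 19 genes of histone acetylation, 3 rose and 2 fell, and 1 of the falls was lost with any 1 library left out. The other, of the deacetylase Hdac7, had 40.9, 45.9 and 50.1 in EMM and 163, 190.0 and 214 in Serum/LIF (log2 fold change −2.04, SE 0.19, edgeR adjusted p = 2.6e-07), with exons that overlap those of Slc48a1.

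Among 12 core pluripotency factors 3 rose and 1 fell. Pou5f1 (OCT4) had 17690.2, 18022 and 18107 normalized counts in EMM and 19316, 17443 and 17038 in Serum/LIF (log2 fold change 0.00, SE 0.09, edgeR adjusted p = 0.998), and Sox2 had 6029, 5965 and 6216 in EMM and 6169, 5852 and 5423 in Serum/LIF (log2 fold change 0.06, SE 0.07, edgeR adjusted p = 0.507). The media overlapped for Pou5f1 and Sox2, and their differences lay within their standard errors. Nanog was the gene that fell, with 3628, 3526 and 3380.2 in EMM and 8033, 7202 and 7534 in Serum/LIF (log2 fold change −1.11, SE 0.11, edgeR adjusted p = 4.41e-07) and every EMM library below every Serum/LIF library. Lin28a, an RNA-binding protein of early embryonic cells, rose by 0.63 (edgeR adjusted p = 7.26e-05). The rises were 1 without EMM replicate 1 or 2 or Serum/LIF replicate 2 and 2 without any other library.

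Of 20 naive pluripotency genes 2 rose and 7 fell, with a median of −0.12 (1 to 2 higher and 5 to 7 lower with any 1 library left out, the second rise lost unless the library was Serum/LIF replicate 1). Dppa3 (Stella), a maternal factor that protects DNA methylation imprints, had 37.2, 33.6 and 40.6 normalized counts in EMM and 466, 374 and 383 in Serum/LIF (log2 fold change −3.46, SE 0.42, edgeR adjusted p = 5.22e-06). Gbx2, a LIF target, had 243, 242 and 224 in EMM and 542, 479 and 501 in Serum/LIF (log2 fold change −1.10, SE 0.14, edgeR adjusted p = 7.3e-06). Prdm14, which restrains DNA methylation in naive cells, had 149.8, 148 and 135 in EMM and 313, 300.0 and 273 in Serum/LIF (−1.04, edgeR adjusted p = 6.82e-06). Tbx3, a T-box factor of naive and endoderm cells, fell (−0.40, edgeR adjusted p = 0.000783). Klf4 had 1509.8, 1681 and 1533 in EMM and 2589, 2566 and 2683 in Serum/LIF (−0.73, edgeR adjusted p = 0.00241) and lost its call without EMM replicate 1 (adjusted p = 0.0131), EMM replicate 3 (0.0122) or Serum/LIF replicate 3 (0.0101). Tfcp2l1 and Esrrb, factors of the naive network, had log2 fold changes of −0.15 (edgeR adjusted p = 0.256) and 0.15 (edgeR adjusted p = 0.0939). Of 21 formative and primed genes, which mark the state of the later epiblast, 6 rose and 3 fell (4 to 5 higher and 2 to 3 lower with any 1 library left out). Car14, a carbonic anhydrase, had 136, 135 and 178 in EMM and 27.3, 29.999 and 17.5 in Serum/LIF (log2 fold change 2.55, SE 0.30, edgeR adjusted p = 2.81e-06). Its exons overlap those of Aph1a on the opposite strand. The Car14 response was −0.86 at P10 (edgeR adjusted p = 0.0221) and −1.79 at 24 h. Fgf5, a marker of the post-implantation epiblast, had 102, 113 and 149 in EMM and 45.2, 46.4 and 30.03 in Serum/LIF (log2 fold change 1.56, SE 0.28, edgeR adjusted p = 0.000328), and Otx2, the epiblast homeobox factor, had 789, 774 and 865 in EMM and 359, 347 and 278 in Serum/LIF (log2 fold change 1.30, SE 0.22, edgeR adjusted p = 0.000128). Both stood above the Serum/LIF range in every EMM library. The falls in this list were led by Krt18, a keratin that is also in the trophectoderm list. Dnmt3b, the de novo DNA methyltransferase, had 5746, 6439.7 and 6157 in EMM and 6235, 6161 and 5639 in Serum/LIF (0.02, edgeR adjusted p = 0.9).

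**Figure D3:**
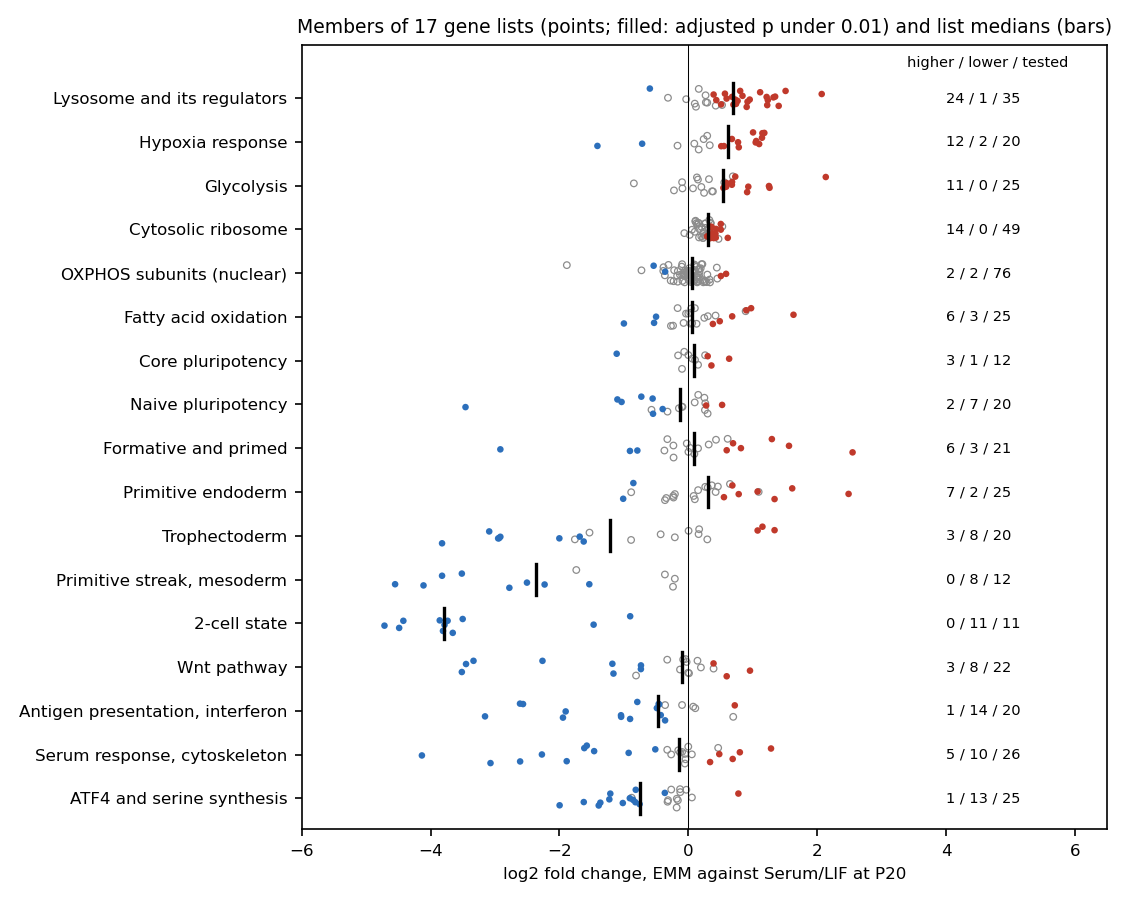
Log2 fold changes of EMM against Serum/LIF at P20 (x axis) for the members of 17 gene lists (rows), with filled points for an adjusted p under 0.01, open points for the rest, and a bar for the list median. The numbers at the right are members higher, lower and tested. Most lysosome (24 higher of 35) and hypoxia genes (12 of 20) sit to the right of 0, and all 11 tested genes of the 2-cell state to the left.

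Genes of signalling in mESCs moved in part. In the Wnt pathway, 3 of 22 genes rose and 8 fell (1 to 3 higher and 6 to 7 lower with any 1 library left out, the fewest rises without Serum/LIF replicate 1). T (Brachyury) and Cdx1, which are Wnt targets, fell the most, and Sp5, another target, had 22.3, 12.3 and 10.9 in EMM and 165, 145 and 133 in Serum/LIF (−3.34, edgeR adjusted p = 2.51e-06). Axin2, a feedback inhibitor of the pathway, had 197, 219 and 176 in EMM and 411, 419 and 521 in Serum/LIF (−1.18, edgeR adjusted p = 7.27e-05). The receptor Fzd7 rose, with 2579.7, 2554 and 2746 in EMM and 1381, 1444 and 1228 in Serum/LIF (log2 fold change 0.96, SE 0.12, edgeR adjusted p = 4.87e-06). Of 20 genes of FGF and ERK output, 9 rose and 4 fell (5 to 7 higher and 4 lower with any 1 library left out, the fewest rises without EMM replicate 3 or Serum/LIF replicate 3). Spry4, a feedback inhibitor induced by ERK, had 4925, 4752 and 4848 in EMM and 2188, 2279 and 2219.9 in Serum/LIF (log2 fold change 1.12, SE 0.10, edgeR adjusted p = 2.39e-07). Ccnd1, cyclin D1, fell, with 702, 632 and 598 in EMM and 2183, 2049 and 2095 in Serum/LIF (log2 fold change −1.71, SE 0.09, edgeR adjusted p = 2.3e-10), as did Phlda1 (−1.21, edgeR adjusted p = 8.77e-06). LIF and STAT3 genes had 3 of 16 higher and 5 lower, with the receptor Lifr higher (0.63) and the kinase Jak2 lower (−0.91). Among Hippo pathway genes, 2 of 15 rose and 5 fell (1 to 2 higher and 4 to 5 lower with any 1 library left out, with 1 rise without EMM replicate 1 or 2 or Serum/LIF replicate 1 or 2). Axl, a receptor kinase and YAP target, had 45.6, 39.2 and 55.1 in EMM and 239, 283 and 438 in Serum/LIF (log2 fold change −2.78, SE 0.20, edgeR adjusted p = 1.04e-08). Tead4 had a log2 fold change of −0.15 (edgeR adjusted p = 0.276). Among Nodal and BMP genes 4 of 19 rose and 5 fell. Id4, an inhibitor of basic helix-loop-helix factors, had 214, 190.2 and 231 in EMM and 59.9, 67.9 and 40.04 in Serum/LIF (log2 fold change 1.89, SE 0.17, edgeR adjusted p = 1.92e-07), while its relative Id3 had 261, 296 and 248 in EMM and 519.9, 459 and 598 in Serum/LIF (log2 fold change −0.96, SE 0.12, edgeR adjusted p = 7.47e-06). Nog, the BMP inhibitor noggin, had 11.2, 3.92 and 5.08 in EMM and 34.7, 45.7 and 46.3 in Serum/LIF (−2.71, edgeR adjusted p = 0.000755), near the floor in EMM.

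Of the 12 tested genes of primitive streak and mesoderm, 0 rose and 8 fell, with a median of −2.37, and 0 higher and 7 lower were called without Serum/LIF replicate 3. At an unadjusted p under 0.05 edgeR had 0 higher and 9 lower. T had 33.5, 19.02 and 18.1 normalized counts in EMM and 272, 256 and 257 in Serum/LIF (log2 fold change −3.52, SE 0.36, edgeR adjusted p = 6.1e-07). Mixl1, a homeobox factor of the streak, had 8.37, 11.8 and 7.98 in EMM and 52.5, 51.4 and 60.1 in Serum/LIF (−2.5047, edgeR adjusted p = 6e-05), and Wnt3, which induces the streak, had 16.7, 23.5 and 28.3 in EMM and 104, 101 and 123 in Serum/LIF (−2.23, edgeR adjusted p = 5.03e-05). Cdx1 had 8.37, 13.99 and 9.43 in EMM and 111, 105 and 149 in Serum/LIF (−3.45). Lhx1, an organizer factor, had 1.86, 1.12 and 2.90 in EMM and 38.9, 74.998 and 26.3 in Serum/LIF, with every EMM library near the floor. Eomes, which acts in the streak and the trophectoderm, had 126, 132 and 135 in EMM and 147, 152 and 155 in Serum/LIF (−0.21, edgeR adjusted p = 0.616), a difference that did not pass although the libraries of the media did not overlap.

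Among 20 tested trophectoderm genes 3 rose and 8 fell, with a median of −1.21, and 3 higher and 7 lower were called without Serum/LIF replicate 3. Krt8, a keratin of simple epithelia, had 354, 375 and 390.2 normalized counts in EMM and 2592, 2698 and 3386 in Serum/LIF (log2 fold change −2.95, SE 0.18, edgeR adjusted p = 1.44e-09), its partner Krt18 had 238, 223 and 229.9 in EMM and 1463, 1514 and 2251 in Serum/LIF (log2 fold change −2.92, SE 0.19, edgeR adjusted p = 2.52e-09), and Krt7 had 18.6, 21.8 and 13.8 in EMM and 116, 124 and 233 in Serum/LIF (−3.09). Hand1, a factor of trophoblast and mesoderm, had 5.58, 9.51 and 6.53 in EMM and 71.4, 70.7 and 181 in Serum/LIF (−3.82, edgeR adjusted p = 1.58e-06), with Serum/LIF replicate 3 well above the other Serum/LIF libraries. Cdx2, the trophectoderm homeobox factor, was low, with 4.65, 3.36 and 6.53 in EMM and 43.1, 25.7 and 45.05 in Serum/LIF (−2.94, edgeR adjusted p = 9.54e-07). Gata3 had 12.1, 10.6 and 6.53 in EMM and 15.8, 16.4 and 55.1 in Serum/LIF (−1.53, edgeR adjusted p = 0.0255), a difference that did not pass the threshold, with Serum/LIF replicate 3 again the highest. Elf5 was not among the genes tested and was at 0 in every EMM library. The 3 that rose, Lrp2 (1.34), Id2 (1.15) and Fgfr2, are also expressed outside this lineage.

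For primitive endoderm, the extra-embryonic lineage that the inner cell mass forms beside the epiblast, 7 of 25 genes rose and 2 fell, with a median of 0.30 (5 to 7 higher and 2 lower with any 1 library left out). Lrp2 (megalin), an endocytic receptor of the visceral endoderm, had 1651, 1888 and 1625 in EMM and 535, 683 and 828 in Serum/LIF (log2 fold change 1.34, SE 0.17, edgeR adjusted p = 5.69e-06). Fgfr2, the FGF receptor of this lineage, had 531, 554 and 588 in EMM and 273, 259 and 262 in Serum/LIF (log2 fold change 1.08, SE 0.14, edgeR adjusted p = 1.47e-05), with part of its annotated exons shared with Ctbp2. Srgn, a proteoglycan, rose by 2.49. Among the defining factors of the lineage Sox17 rose from a low level, with 16.7, 12.3 and 21.04 in EMM and 6.30, 5.71 and 3.75 in Serum/LIF (1.61, edgeR adjusted p = 0.0041), whereas Gata6, Gata4, Sox7 and Pdgfra did not pass the test. The Sox17 call was lost by DESeq2 (adjusted p = 0.0143), with no filter on low counts (0.0292) and without any 1 library other than EMM replicate 2 (0.0126 to 0.028). Gata6 had 13.95, 25.2 and 34.1 in EMM and 24.2, 17.9 and 25.03 in Serum/LIF (0.15, edgeR adjusted p = 0.8) and Gata4 had 47.4, 71.6 and 76.9 in EMM and 31.5, 46.4 and 47.6 in Serum/LIF (0.65, edgeR adjusted p = 0.0909). Sox7 and Pdgfra had log2 fold changes of 0.42 (edgeR adjusted p = 0.359) and −0.36 (edgeR adjusted p = 0.421). The receptor Kit (−1.01) and Sparc (−0.85) fell.

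Of the 5 tested markers of neural progenitors, 1 rose and 1 fell, against 13.6% and 12.5% of all genes, and in the other 3, as in the one that rose, every EMM library lay above every Serum/LIF library (30.0% of all genes). Sox1, the earliest of them, had 161, 160.03 and 134 in EMM and 46.2, 38.6 and 38.8 in Serum/LIF (log2 fold change 1.88, SE 0.25, edgeR adjusted p = 1.4e-05), with every EMM library above the Serum/LIF range. Nes, an intermediate filament, had 347, 420.2 and 364 in EMM and 631, 654 and 766 in Serum/LIF (log2 fold change −0.85, SE 0.19, edgeR adjusted p = 0.00147) and fell, and Pax6, a homeobox factor of neural tissue and eye, had 107, 84.5 and 85.6 in EMM and 61.97, 45.7 and 40.04 in Serum/LIF (0.90, edgeR adjusted p = 0.0696), a difference that did not pass, though it did with edgeR run on the compared libraries alone (0.89, adjusted p = 0.00226). Tubb3, a neuronal tubulin, had 1419.6, 1380.4 and 1351 in EMM and 1119.7, 1075 and 1169 in Serum/LIF (0.30, edgeR adjusted p = 0.0134) and passed by DESeq2 (adjusted p = 0.00744) and with the compared libraries alone (0.000671), and Zfp521, a zinc finger factor, had 28.8, 22.9 and 31.9 in EMM and 22.1, 8.57 and 15.02 in Serum/LIF (0.90, edgeR adjusted p = 0.128). Of 19 genes of cadherins and epithelial to mesenchymal transition, 1 rose and 3 fell, the falls being 1 without Serum/LIF replicate 3 and 6 by DESeq2 at an adjusted p under 0.01. The rise was that of the repressor Zeb1 (0.89, edgeR adjusted p = 2.26e-06), while its relative Zeb2 had 32.6, 22.9 and 29.01 in EMM and 73.5, 94.3 and 133 in Serum/LIF (log2 fold change −1.83, SE 0.27, edgeR adjusted p = 4.56e-05).

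Among 30 cell cycle genes 3 rose and 10 fell, and without Serum/LIF replicate 3 the rises were 1. Ccnd2, cyclin D2, had 31.6, 38.05 and 22.5 in EMM and 221, 222 and 312 in Serum/LIF (log2 fold change −3.01, SE 0.24, edgeR adjusted p = 3.34e-08), and Ccnd3 and Ccne1, cyclins of the same phase, fell as well (−0.82 and −0.67). The inhibitor of cyclin-dependent kinases Cdkn1b (p27) rose, with 1314, 1264 and 1358 in EMM and 716, 700.0 and 574 in Serum/LIF (log2 fold change 0.98, SE 0.11, edgeR adjusted p = 3.12e-06), whereas Cdkn1a (p21), which is also a p53 target, had 436, 439 and 444 in EMM and 893, 905 and 1016 in Serum/LIF (log2 fold change −1.09, SE 0.08, edgeR adjusted p = 2.59e-08). The 2 inhibitors thus went in opposite directions, each with no overlap of the libraries. Of the inhibitors in the list Cdkn1b alone rose, and others besides Cdkn1a passed the test and fell. Among 30 genes of p53 response and apoptosis 2 rose and 12 fell. With any 1 library left out 1 to 2 rose and 8 to 10 fell, with 1 rise without Serum/LIF replicate 1. Perp, a p53 target of cell junctions, had 228, 232 and 201 in EMM and 672, 636 and 673 in Serum/LIF (log2 fold change −1.58, SE 0.13, edgeR adjusted p = 7.98e-08), and Tnfrsf1a, the receptor of tumour necrosis factor, had 56.7, 28.5 and 29.7 in EMM and 84.03, 110.0 and 113 in Serum/LIF (log2 fold change −1.45, SE 0.24, edgeR adjusted p = 0.000141). Trp53, the gene of p53, had a log2 fold change of −0.03, edgeR adjusted p = 0.768.

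All 11 tested genes of the 2-cell state fell, against 12.5% of all genes, and in each every EMM library lay below every Serum/LIF library, which held for 29.5% of all genes. Their median was −3.79, and 8 to 10 of them were called with any 1 library left out, 9 of them without Serum/LIF replicate 3. Zscan4c, a telomere and genome stability factor, had 6.51, 24.1 and 0 normalized counts in EMM and 174, 208 and 383 in Serum/LIF (log2 fold change −4.49, SE 0.66, edgeR adjusted p = 3.48e-05), and Zscan4f had 29.8, 31.9 and 25.4 in EMM and 304, 284 and 649 in Serum/LIF (−3.81, edgeR adjusted p = 1.73e-05). The 2 media did not overlap, and in both genes Serum/LIF replicate 3 was the highest. Zscan4 genes are near-identical copies, as are other genes of the list, so that reads may be divided among them and their falls are not independent.

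Of 26 genes of serum response and cytoskeleton, 5 rose and 10 fell, and with any 1 library left out 2 to 4 higher and 10 lower were called, the fewest rises without Serum/LIF replicate 1. Cav1, the main protein of caveolae, had 9.30, 5.04 and 7.25 in EMM and 106, 122 and 146 in Serum/LIF (log2 fold change −4.14, SE 0.32, edgeR adjusted p = 8.51e-08), and Tagln, an actin-binding protein of smooth muscle, had 339.6, 386 and 397 in EMM and 983, 924 and 1454 in Serum/LIF (−1.58, edgeR adjusted p = 5.88e-06). Anxa2, an annexin, rose, with 2952, 2875 and 3253 in EMM and 1184, 1226 and 1320.2 in Serum/LIF (1.28, edgeR adjusted p = 0.000355). Col3a1, a chain of type III collagen, had 12.1, 8.39 and 7.98 in EMM and 101, 119 and 226 in Serum/LIF (−3.97, edgeR adjusted p = 2.39e-07). Thy1, another fibroblast marker, had 85.6, 135 and 128 in EMM and 132, 126 and 138 in Serum/LIF (−0.17, edgeR adjusted p = 0.573). Postn, a matrix protein, had 17.9, 19.999 and 35.04 in Serum/LIF and was at 0 in EMM. Col1a1, Col1a2, Col3a1 and Postn are themselves markers of fibroblasts, and the part of such cells in the falls was not tested. In antigen presentation and interferon response, 1 of 20 genes rose and 14 fell, with a median of −0.47. Without EMM replicate 1 the falls were 7 and without Serum/LIF replicate 3 they were 9. H2-K1, a class I heavy chain with close copies in the genome, had 295, 326 and 369.9 in EMM and 692, 641 and 713 in Serum/LIF (log2 fold change −1.04, SE 0.16, edgeR adjusted p = 4.49e-05), and Psmb8, a subunit of the immunoproteasome, had 18.6, 15.1 and 21.04 in EMM and 117, 96.4 and 123 in Serum/LIF (log2 fold change −2.61, SE 0.26, edgeR adjusted p = 2.58e-06). B2m, the light chain of class I, was the gene that rose, with 335, 344 and 367 in EMM and 225, 178 and 235 in Serum/LIF (0.72, edgeR adjusted p = 0.000689).

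Several imprinted genes changed. Of 31 tested 6 rose and 9 fell, and without EMM replicate 1 the falls were 5. H19, a maternally expressed long RNA, had 109.8, 90.1 and 90.7 normalized counts in EMM and 1119, 1198 and 2129.8 in Serum/LIF (log2 fold change −3.94, SE 0.24, edgeR adjusted p = 1.66e-09), and Igf2, the paternally expressed growth factor beside it, had 194, 109.7 and 137 in EMM and 1506, 1705 and 3788 in Serum/LIF (log2 fold change −4.0047, SE 0.32, edgeR adjusted p = 3.62e-08). Serum/LIF replicate 3 was the highest for both, and Igf2 overlaps an antisense gene. On chromosome 12 the maternally expressed RNAs Meg3 (0.86, edgeR adjusted p = 1.37e-06) and Mirg (1.16, edgeR adjusted p = 3.67e-08) rose, while the paternally expressed Dlk1 of the same cluster had 38.1, 48.7 and 43.5 in EMM and 102, 88.6 and 101 in Serum/LIF (−1.15, edgeR adjusted p = 0.00142), a call that was lost without EMM replicate 1 (adjusted p = 0.0107). Impact, a regulator of translation, had 7156, 6526 and 6898 in EMM and 2954, 3069 and 2922 in Serum/LIF (log2 fold change 1.20, SE 0.11, edgeR adjusted p = 1.19e-07).

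The response at P20 was smaller in number than that at P10, where 1070 genes (6.67%) were higher and 1683 (10.5%) lower in EMM. Of the P20 genes, 257 of 553 higher and 563 of 993 lower were called the same way at P10, which is 46.5% and 56.7% of the P20 lists and 24.0% and 33.5% of the P10 lists. Those called in opposite directions were 26 higher at P20 and lower at P10, and 17 lower at P20 and higher at P10. The passages share no library. The test of the difference between the responses called 812 genes (5.06%) with a more positive and 537 (3.34%) with a more negative response at P20. Of the 812, 489 were lower in EMM at P10 and not called at P20, and of the 537, 296 were higher at P10 and not called at P20. The P10 and P20 libraries of either medium differ in passage, and whether they were prepared together is not given in the sources used here, so passage and preparation cannot be told apart. In a difference of responses, the Serum/LIF libraries count as much as the EMM libraries.

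**Figure D4:**
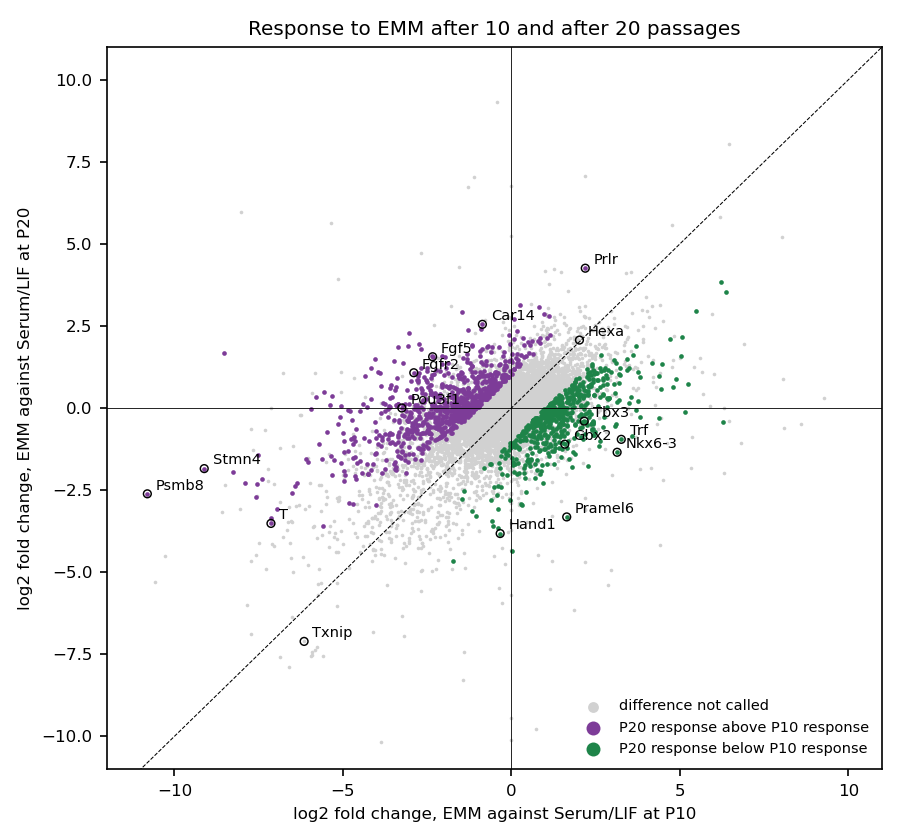
Log2 fold change of EMM against Serum/LIF at P10 (x axis) and at P20 (y axis) for each gene tested, with the dashed line at equal responses. Purple and green points are the 812 and 537 genes whose responses differed. Hexa and Txnip lie near the line, whereas Tbx3 and Gbx2 lie below it and Fgf5 and Fgfr2 above.

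Among naive pluripotency genes the P20 response was the lower one at an adjusted p under 0.01 in 13 of 20 genes and the higher one in 1, against 6.43% and 8.28% of all genes, and a median response of 0.69 at P10 against −0.12 at P20. Tbx3 had 4608, 4137 and 4378 normalized counts in EMM and 1009, 959 and 966 in Serum/LIF at P10, and 1501, 1498 and 1473 in EMM and 1752, 1880.0 and 2266 in Serum/LIF at P20. The difference of the responses was −2.56 (SE 0.12, edgeR adjusted p = 1.01e-10), and both media had changed. Gbx2 had 598, 614 and 683 in EMM and 244, 212 and 171 in Serum/LIF at P10, against 243, 242 and 224 in EMM and 542, 479 and 501 in Serum/LIF at P20, a difference of −2.69 (SE 0.20, edgeR adjusted p = 3.82e-08). Tfcp2l1 responded with 1.31 at P10 and −0.15 at P20, a difference of −1.45 (SE 0.14, edgeR adjusted p = 6.28e-07). Formative genes went the other way, with 14 of 21 more positive at P20 and 3 more negative, and medians of −1.43 at P10 and 0.09 at P20. Fgf5 had 22.5, 31.2 and 52.7 in EMM and 167, 188 and 147 in Serum/LIF at P10, a level in Serum/LIF above that at P20, and the difference was 3.90 (SE 0.41, edgeR adjusted p = 3.76e-06). Pou3f1 (OCT6), a factor of the formative epiblast, had 88.4, 84.2 and 91.6 in EMM and 781, 830.4 and 905 in Serum/LIF at P10. At P20 it had 374, 407 and 469 in EMM and 435, 416 and 398 in Serum/LIF, so that its difference was 3.25 (SE 0.16, edgeR adjusted p = 2.04e-10). The difference was 1.46 (SE 0.18, edgeR adjusted p = 8.11e-06) for Dnmt3b and 3.97 (SE 0.23, edgeR adjusted p = 1.29e-09) for Fgfr2. Lysosomal genes had medians of 0.70 at P10 and 0.70 at P20, with 5 of 35 more positive and 4 more negative at P20.

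**Figure D5:**
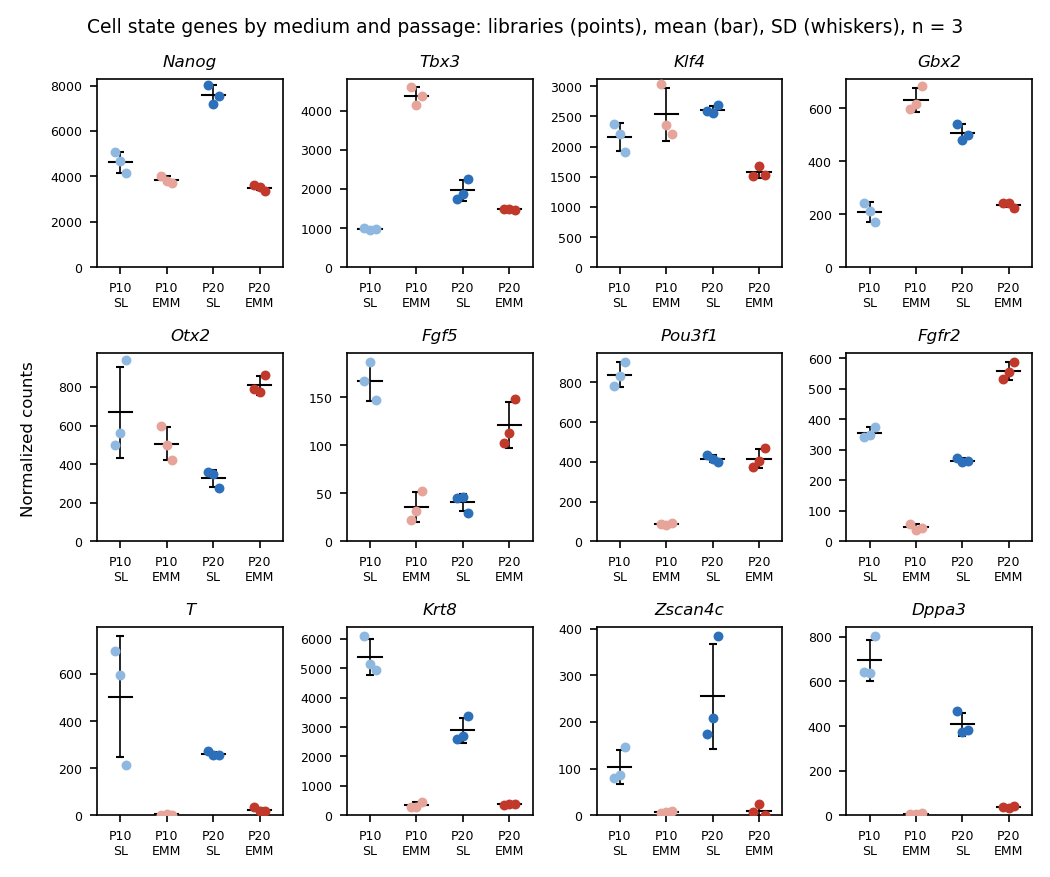
Normalized counts (y axis, from 0) of 12 cell state genes in Serum/LIF (blue) and EMM (red) at P10 (pale) and P20 (dark), with points for the 3 libraries of a group, bars for the mean and whiskers for the SD. Krt8 and Zscan4c are low in EMM at both passages, while Tbx3 and Gbx2 are above Serum/LIF at P10 and below it at P20.

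Among the most positive differences between passages were those of Oasl2, Thsd7a, Stmn4 and Psmb8, genes at or near the floor in the P10 EMM libraries, where fitted differences depend on low counts. Psmb8 was at 0 in every EMM library and had 269, 234 and 167 normalized counts in Serum/LIF at P10. Stmn4, a stathmin of neurons, was also at 0 in EMM at P10, with 86.8, 59.5 and 61.3 in Serum/LIF. The most negative differences were those of Pramel6, Matn1, Nkx6-3, Rbfaos and Trf. Trf, transferrin, had 777, 874 and 777 in EMM and 93.6, 91.3 and 67.1 in Serum/LIF at P10, and 51.2, 59.3 and 43.5 in EMM and 107, 95.7 and 97.6 in Serum/LIF at P20, a difference of −4.21 (SE 0.29, edgeR adjusted p = 1.33e-08). Nkx6-3, a homeobox factor, had 189, 232 and 284 in EMM and 36.6, 33.7 and 6.94 in Serum/LIF at P10, and 63.3, 44.2 and 40.6 in EMM and 165, 127 and 80.1 in Serum/LIF at P20, a difference of −4.49 (SE 0.52, edgeR adjusted p = 5.08e-06). Pramel6, a germ cell and early embryo gene of a family with close copies, responded with 1.64 at P10 and −3.32 at P20, a difference of −4.96 (SE 0.57, edgeR adjusted p = 4.46e-06).

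Set beside the first day in EMM, 125 of the 528 higher P20 genes that were also tested at 24 h were called higher there, and 230 of the 819 lower ones were called lower. These are 23.7% and 28.1% of those P20 genes. Of the 24 h genes that were also tested at P20, 478 higher and 691 lower, they are 26.2% and 33.3%. Over all genes tested at 24 h, 561 (3.50%) were called higher and 752 (4.69%) lower. In the opposite direction, 15 of the higher and 43 of the lower P20 genes were called at 24 h. The 2 experiments were counted and normalized separately. Hexa responded with 1.54 at 24 h and 2.07 at P20, Psat1 with −1.59 and −1.23, and Sirt1 with 0.88 and 1.10. Krt8 responded with 0.81 at 24 h and −2.95 at P20, and Col1a1 with −0.29 and −6.88.

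The P20 libraries in 2i/LIF, a serum-free medium with inhibitors of MEK and GSK3, share their Serum/LIF libraries with this comparison, so the values are only set side by side. Against Serum/LIF, Txnip had a log2 fold change of −0.67 in 2i/LIF and −7.11 in EMM. Hexa had 0.57 and 2.07, Psat1 0.11 and −1.23, and Spry4 −3.76 and 1.12. Col1a1 had −6.63 and −6.88, Krt18 −4.10 and −2.92, and Zscan4c −5.98 and −4.49.

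The median over the genes of a chromosome was shifted in a few cases. Of the 20 chromosomes with at least 200 tested genes, 8, 11 and X had medians of 0.13, −0.13 and −0.12, and the other 17 lay between −0.04 and 0.04. On chromosome 8, 64.2% of 833 genes had a log2 fold change above 0, against 38.2% of 1251 genes on chromosome 11 and 42.9% of 590 on X. On the other chromosomes this share lay between 46.8% and 54.2%. The SD of the median over the EMM libraries was 0.0393 for chromosome 8, 0.0163 for chromosome 11 and 0.00548 for X. At P10 the medians of these chromosomes were 0.05, −0.10 and −0.12, and those of the other 17 lay between −0.05 and 0.07, so that chromosome 8 lay within that range.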

How the data were processed

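RNA of E14tg2a mESCs was measured by RNA-seq, and per the labels libraries were made with a directional kit. For the passage experiment the deposited values are expected counts per gene, 9.982% of them not whole. The submitters' processing notes name mm10, STAR, Salmon and DESeq2, the study's methods name STAR and HTSeq, and the tool behind these values is not given in the sources used here. The time course is deposited as whole-number counts per gene, for which the notes name STAR and featureCounts. The strand setting of the counting is not stated.

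Expected counts were rounded. Genes were kept by edgeR's expression filter, scaled by the trimmed mean of M-values (TMM), and fitted by edgeR 4.0.16 (quasi-likelihood, R 4.3.3) in 1 model over all 18 libraries of 6 groups of the passage experiment, with Benjamini-Hochberg adjustment over all 16054 genes. Called genes had an absolute log2 fold change above 1 and an adjusted p under 0.01, the thresholds of the study's methods, and members of the 42 gene lists were counted at an adjusted p under 0.01. On simulated data for this comparison (15474 genes, 200 changed), 96 of 100 genes changed by a log2 of 1.5 and 100 of 100 changed by 2.5 were recovered, with 0 false calls. The changed genes were drawn from those with a mean of at least 50 normalized counts, and all other genes had equal means in every group. Counts were drawn from the kind of model that was then fitted. These rates therefore do not extend to genes of lower counts, nor to data with more changed genes. With 3 against 3 libraries an exact permutation test cannot go below 0.1, so none was used.

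The genes named are the 10 largest rises and falls of at least 50 normalized counts without overlap of libraries or a predicted name, up to 2 rises and 2 falls of each list, a fixed set of pluripotency, lineage and metabolic genes, the 5 largest passage differences in each direction and the cell type markers. Aldoa, Asns, Atf4, Atp6v0d1, Axin2, Bnip3, Ccnd3, Ccne1, Cdkn1a, Ctsa, Ctsd, Dlk1, Egln1, Egln3, Fgfr2, Flcn, Fnip1, Galk1, Galt, Gapdh, Gla, Gpi1, H2-K1, Hif1a, Id3, Kdm3a, Ldha, Mael, Mcoln1, Meg3, Nfe2l2, Npc2, Otx2, Pfkl, Pou3f1, Psat1, Rpl22, Slc2a1, Slc2a3, Sp5, Tagln, Tfe3, Tfeb, Tnfrsf1a, Trp53, Ugdh, Wnt3 and Zscan4f were named after their values were seen. Results for some genes are not reported here. The lists and rules were chosen with earlier results of these data known. Where a symbol stood for several identifiers, the most abundant was used. Names and coordinates are of GENCODE M21 (GRCm38), and promoters were read from RefSeq on GRCm38.p6. Exon overlaps with other genes are stated above for some genes only. Among the others, exons of Aldoa overlap Fam57b, Ankrd37 Ufsp2, Ccnd1 LTO1, Ccnd3 Bysl, Cpt1b Gm44502 and Ctsd Gm49369. No pair of replicate libraries agreed within sampling noise (chi-square per degree of freedom 3.43 to 7.76). Alternatives were DESeq2 1.42.0, other scalings, filters and thresholds, a replicate block, unrounded counts, the compared groups alone and leaving out each library.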

Additional observations from a re-analysis of the deposited data

Results flagged for a closer look

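Genes whose EMM response at P20 differed from that at P10 in edgeR's test of the difference stand here with the P20 response minus the P10 response on the log2 scale. The more positive ones at P20 were Fgfr2 at 3.97, Fgf5 at 3.90, Pou3f1 at 3.25 and Dnmt3b at 1.46. The more negative ones were Pramel6 at −4.96, Nkx6-3 at −4.49, Trf at −4.21, Gbx2 at −2.69, Tbx3 at −2.56 and Tfcp2l1 at −1.45. Adjusted p lay between 1.01e-10 for Tbx3 and 8.11e-06 for Dnmt3b, and each call held with any 1 library left out. In each of these 10 genes the mean Serum/LIF level moved between the passages in the opposite direction to the mean EMM level. Whether passage or the preparation of the libraries goes with these differences cannot be told apart.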

How the results depend on the processing

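The numbers of P20 genes called higher and lower, 553 and 993, were 527 and 1026 with DESeq2 size factors, 457 and 1146 with library totals alone, 537 and 1080 with DESeq2's own test, 614 and 1110 with the compared groups alone, and 631 and 1163 with no filter. A stricter filter, 10 counts or more in each library, gave 275 and 329, for which fewer genes were tested, and no fold threshold gave 2176 and 2003. For the difference between passages, 812 and 537 genes, these settings gave 445 more positive with the stricter filter, and 1329 and 1033 with no fold threshold. The genes called the same way at P20 and 24 h, 355 in all, were 124 and 2263. Leaving out 1 library gave 479 to 517 and 793 to 917 genes at P20, 670 to 794 and 446 to 509 for the difference between passages, and 293 to 366 for those shared with 24 h.

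The replicate numbers did not pair the libraries: deviations of same-numbered EMM and Serum/LIF libraries from their group means correlated at −0.354, 0.0435 and −0.26 over 10250 genes. With the replicate block 547 genes were higher and 969 lower at P20, 786 and 527 differed between passages, and 342 were shared with 24 h. No EMM library correlated best with the Serum/LIF library of its own number. The highest values were 0.405 for EMM 1 with Serum/LIF 2, 0.224 for EMM 2 with Serum/LIF 3 and 0.491 for EMM 3 with Serum/LIF 1. A pairing under other numbers was not tested, and the replicate block could not adjust for it.

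Genes that passed no test and whose log2 fold changes lay near 0 changed sign. Dnmt3b was at −0.0669 with library totals alone, −0.0239 with the stricter filter and −0.0186 to 0.0700 without 1 library. Gata6 was at −0.15 to 0.42 without 1 library. Gla was at −0.0904 to 0.00719 without 1 library. Ldha was at −0.0184 with library totals alone. Pou5f1 was at −0.0211 with DESeq2 size factors, −0.0902 with library totals alone, −0.0476 with the stricter filter, −0.0211 with DESeq2's test, −0.00936 with the compared groups alone and −0.0341 to 0.0508 without 1 library. Sox2 was at −0.0291 with library totals alone. Of 84 counts of list members called higher or lower, 30 moved by over 1.5 times with the compared groups alone, 19 with the stricter filter, 15 with library totals alone, 13 with no filter, 6 with DESeq2's test, 4 with its size factors and 2 with the replicate block. With the stricter filter, under which fewer members were tested, the medians of primitive streak and trophectoderm genes were −0.26 each, of 2-cell genes −0.95 and of the amino acid response −0.39, and with library totals alone that of naive genes was −0.21. The median of the nuclear respiratory chain genes was 0.02 to 0.11 without 1 library. Of 42 list medians, 11 changed sign under at least 1 alternative, with medians from −0.01 to 0.08 in the fit reported. A scaling by totals moved the median of all genes to −0.09.

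Depth limits genes near the floor, where 3 libraries a group hold few counts, and expected counts carry an estimation error that the tests do not see. P-values measure the spread between these libraries of 1 cell line.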

Other observations

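Of 49 cytosolic ribosomal protein genes, 14 rose and 0 fell (28 and 0 at an unadjusted p under 0.05 by edgeR), with a median of 0.31. This count moved with single libraries, from 3 without Serum/LIF replicate 2 or 3 to 18, and was 4 without EMM replicate 3. Rpl22, of the large subunit, had 9313, 9786 and 10559.9 in EMM and 7845, 6456 and 6611 in Serum/LIF (log2 fold change 0.50, SE 0.09, edgeR adjusted p = 0.000167). Of 20 genes of NRF2 and redox enzymes, 5 rose and 0 fell (11 and 0 unadjusted), led by Gstm1 (0.95, edgeR adjusted p = 0.000134) and Nqo1, a quinone reductase, which had 474, 506 and 480.2 in EMM and 289, 259 and 230.2 in Serum/LIF (log2 fold change 0.90, SE 0.13, edgeR adjusted p = 3.02e-05). Nfe2l2, the gene of NRF2, rose by 0.86 (edgeR adjusted p = 0.000352). Of 18 chaperones of the endoplasmic reticulum, 4 rose and 0 fell (10 and 1 unadjusted), among them the calcium-binding Calr (0.73, edgeR adjusted p = 5.65e-06), and 2 rose without EMM replicate 2 or 3 or Serum/LIF replicate 1 or 2 and 3 without any other library. Nagk, which salvages N-acetylglucosamine, was the single gene of 8 in the hexosamine pathway to pass, with 287, 293 and 318 in EMM and 133, 131 and 138 in Serum/LIF (log2 fold change 1.16, SE 0.16, edgeR adjusted p = 2.55e-05).

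Lipid synthesis genes were mixed. Of 26 sterol genes 2 rose and 4 fell, and 0 to 1 higher and 2 to 4 lower were called with any 1 library left out, with 0 rises without Serum/LIF replicate 1 or 3 and 2 falls without EMM replicate 1 or 2. Ebp, a sterol isomerase, fell (−0.76, edgeR adjusted p = 0.000216). Of 14 fatty acid synthesis genes 0 rose and 3 fell (0 and 7 at an unadjusted p under 0.05 by edgeR, and 0 and 5 at an adjusted p under 0.01 by DESeq2), and Scd1, a desaturase, had 986, 861 and 1005 in EMM and 1406, 1513 and 1694 in Serum/LIF (log2 fold change −0.69, SE 0.10, edgeR adjusted p = 4.45e-05). In the pentose phosphate pathway 1 of 8 genes rose and 2 fell. The rises were 0 without EMM replicate 2 or 3 or Serum/LIF replicate 2 or 3, and the falls were 1 without EMM replicate 1 or 3 or Serum/LIF replicate 2 or 3. H6pd, the enzyme of the pathway in the endoplasmic reticulum, fell (−0.57, edgeR adjusted p = 0.0044), a call that was lost without EMM replicate 1 (adjusted p = 0.0124), EMM replicate 3 (0.0307), Serum/LIF replicate 2 (0.0272) or Serum/LIF replicate 3 (0.0149).

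Of 16 germline genes known to be silenced by promoter methylation, 1 rose and 4 fell. Tex19.1, a germ cell factor, had 277, 336 and 277 in EMM and 927, 829 and 1147 in Serum/LIF (log2 fold change −1.70, SE 0.14, edgeR adjusted p = 4.48e-08), and Mael, of the piRNA pathway, had 67.9, 85.6 and 63.8 in EMM and 174, 175 and 201 in Serum/LIF (log2 fold change −1.33, SE 0.18, edgeR adjusted p = 1.31e-05). Among 11 writers, erasers and regulators of DNA methylation 0 rose and 2 fell, Prdm14 and Zfp42 (−0.55, edgeR adjusted p = 0.000116), with 2 higher and 3 lower at an unadjusted p under 0.05 and 1 higher at an adjusted p under 0.01 by DESeq2 or, by edgeR, without Serum/LIF replicate 3. In the network of Myc and Max 3 of 17 genes rose and 3 fell, and 1 rose without Serum/LIF replicate 1. Mnt, a repressor that pairs with Max, had 1712, 1688 and 1701 in EMM and 899, 946 and 919.7 in Serum/LIF (log2 fold change 0.88, SE 0.06, edgeR adjusted p = 9.34e-09), and Mycl, the L-Myc gene, fell (−1.22, edgeR adjusted p = 3.28e-07).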
